A study of Rattus norvegicus with 36 samples.

Results

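The genes described here are 8 enzymes and regulators of cholesterol and fatty acid synthesis in the rat lung: Hmgcs1, Idi1, Fdps, Sqle, Lss, Cyp51, Insig1 and Scd. They were chosen by name as known targets of the sterol regulatory element-binding proteins (SREBPs), and all probes carrying their names on the array were read. This gave 15 of 45598 probes and 8 of 25597 gene names. Female Sprague Dawley rats aged 13 weeks were instilled once into the trachea with 10 mg/rat of the crystalline silica DQ-12 in saline, or with the saline vehicle alone. RNA from the accessory lobe of the lung was hybridized at day 1 (D1), day 30 (D30) and day 180 (D180) on 1-color arrays, with 6 vehicle rats and 6 DQ-12 rats at each time point and 36 arrays in all. Each comparison is DQ-12 against vehicle at the same time point, and 1 dose was given, so no dose response can be read.

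SREBPs are transcription factors held in the membrane of the endoplasmic reticulum. When membrane sterol runs low, the escort protein SCAP carries them to the Golgi, where they are cleaved and released to the nucleus. INSIG proteins hold SCAP back when sterol is plentiful. SREBP-2 mainly drives cholesterol synthesis, whereas SREBP-1c, whose own gene is induced by the oxysterol receptors (LXRs), mainly drives fatty acid synthesis and desaturation. In the lung, alveolar type 2 cells make fatty acids and take up or make cholesterol for surfactant, and macrophages clear it.

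The sequences before the start sites of 5 of the genes are shown because SREBPs act together with the CCAAT-binding factor NF-Y. They include genes that were called higher after DQ-12 and Scd, which was not called. Differences in response between the genes were not tested. RefSeq promoters were at hand for 7 of the 8 genes, all except Sqle. Capitals mark CCAAT on either strand (CCAAT or ATTGG) in the 250 bases before the start, written 5′ to 3′ in the direction of the gene.
Hmgcs1 (GRCr8, chr2:53382054-53382303, plus strand): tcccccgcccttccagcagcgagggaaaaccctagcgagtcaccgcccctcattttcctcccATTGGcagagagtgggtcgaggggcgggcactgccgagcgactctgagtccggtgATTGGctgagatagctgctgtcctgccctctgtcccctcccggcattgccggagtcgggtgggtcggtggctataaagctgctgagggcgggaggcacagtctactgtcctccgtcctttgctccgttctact
Idi1 (GRCr8, chr17:66547525-66547774, minus strand): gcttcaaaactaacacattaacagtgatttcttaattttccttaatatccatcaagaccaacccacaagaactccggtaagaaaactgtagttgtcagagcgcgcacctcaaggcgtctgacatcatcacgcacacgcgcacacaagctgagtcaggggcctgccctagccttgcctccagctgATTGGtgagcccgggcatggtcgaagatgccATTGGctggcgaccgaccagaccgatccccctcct
Fdps (GRCr8, chr2:176804817-176805066, minus strand): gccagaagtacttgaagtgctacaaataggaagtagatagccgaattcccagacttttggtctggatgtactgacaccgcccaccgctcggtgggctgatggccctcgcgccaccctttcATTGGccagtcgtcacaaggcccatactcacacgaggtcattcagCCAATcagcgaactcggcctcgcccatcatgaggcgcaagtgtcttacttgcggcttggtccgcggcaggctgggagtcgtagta
Cyp51 (GRCr8, chr4:30991443-30991692, plus strand): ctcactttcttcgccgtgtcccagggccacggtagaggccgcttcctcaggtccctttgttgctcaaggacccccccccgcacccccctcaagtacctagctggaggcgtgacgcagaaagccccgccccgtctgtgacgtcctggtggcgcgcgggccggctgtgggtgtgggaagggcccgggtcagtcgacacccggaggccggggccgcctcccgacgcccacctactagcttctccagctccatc
Scd (GRCr8, chr1:253231732-253231981, minus strand): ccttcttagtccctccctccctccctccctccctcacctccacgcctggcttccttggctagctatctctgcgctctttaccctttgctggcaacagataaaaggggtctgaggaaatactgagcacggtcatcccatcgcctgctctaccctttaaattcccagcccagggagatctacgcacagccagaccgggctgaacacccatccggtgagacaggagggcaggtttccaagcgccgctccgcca
A CCAAT box was found in 5 of the 7 promoters (2 each in Hmgcs1, Idi1 and Fdps, 1 each in Insig1 and Lss) and in 34.0% of the 33469 promoters of the same length, and the Cyp51 and Scd windows held none. Among the other sterol synthesis enzymes, 10 of 12 promoters held it. So did 15 of 21 of other fatty acid synthesis genes and 8 of 14 of SREBP control and sterol-regulated genes. Of genes of LXR action and sterol handling, 4 of 14 did. The GC box GGGCGG, read on both strands, was in 5 of the 7 windows against 30.5% of all promoters, missing from those of Idi1 and Scd. The sterol element spelled TCACNCCAC was in none of the 7 and in 0.974% of all promoters, and the E-box CACGTG was in that of Insig1 alone, against 5.59%. In the 7 windows no match of one motif overlapped a match of another. A match or its absence in this window describes the sequence only.

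On each array, 61.0% to 80.6% of spots were well above background and none was saturated, and all 15 probes of the 8 genes were well above background on all 36 arrays. All 10 markers of alveolar type 2 cells and all 6 of alveolar type 1 cells were well above background on every array. Levels are given as log2 normalized intensity, on which a step of 1 is a doubling, and cannot be compared between genes. A gene was called when its adjusted p in limma, corrected by the Benjamini-Hochberg method over 23940 genes, was under 0.05. At D1 a shared scan date held all 6 DQ-12 arrays and only 1 of the 6 vehicle arrays, so exposure and scan date are largely confounded at that time, and the values within shared scan dates are given beside the results. In the order given, the shared dates held 4 vehicle with 1 DQ-12 array and 2 with 5 at D30. At D180 they held 3 with 3 and 1 with 1. RNA came from whole lobes, so more RNA per cell and more cells of a kind that expresses a gene cannot be told apart.

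Sterol synthesis genes were higher after DQ-12 at D1 and again at D180, with a smaller median difference at D30. At D1, 5 of the 8 genes were called higher (Hmgcs1, Idi1, Fdps, Lss and Cyp51), where 7.58% of all genes were, and none was called lower, where 8.62% of all genes were. At D30, Cyp51 alone was called higher, against 2.74% of all genes, and none lower, against 1.24%. At D180, 5 were called higher (Idi1, Fdps, Sqle, Lss and Cyp51), against 7.82%, and none lower, against 9%. The median log2 fold change of the 8 genes was 0.76 at D1, 0.53 at D30 and 0.80 at D180, and that of all genes was -0.01, -0.02 and -0.03. Without a multiple-test correction, the limma p was under 0.05 for 6 of the 8 genes at D1, 5 at D30 and 6 at D180. The share of all genes at that level was not computed, so these counts cannot be set against it. Insig1 and Scd were not called at any time point.

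**Figure D1:**
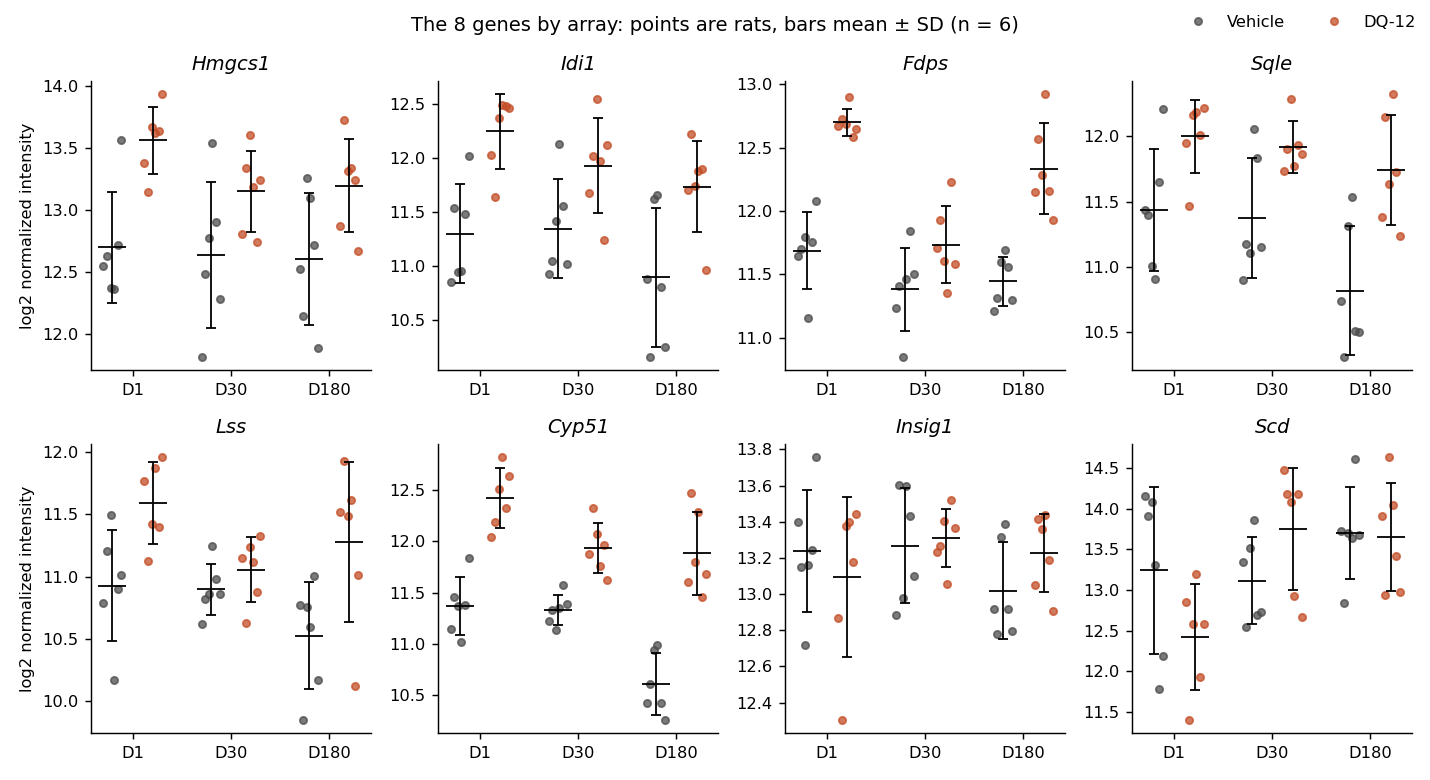
Log2 normalized intensity of each of the 8 genes (y axis) in vehicle rats (dark gray) and DQ-12 rats (orange-red) at D1, D30 and D180 (x axis). Each point is 1 rat and bars are mean ± SD of 6. Each gene is read from its brightest probe. On it the Cyp51 groups are separate at all 3 times, whereas the Insig1 and Scd groups overlap throughout.

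Most of these fold changes were moderate. With a fold change of at least 2 also required, 2 genes remained at D1 (Fdps and Cyp51, against 3.07% of all genes in either direction), 0 at D30 (1.05%) and 1 at D180 (Cyp51, 3.63%). Without the fold requirement, limma called 1 at D30. The count at D1 turned on single arrays, because both genes lie near 2-fold: it was 0 without vehicle replicate 4 or without DQ-12 replicate 4, and 4 without vehicle replicate 6. At D180 it was 2 without vehicle replicate 3, vehicle replicate 4 or DQ-12 replicate 6.

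Cyp51, the lanosterol 14-alpha demethylase, was the only one of the 8 genes whose groups were separate at all 3 times, each gene being read from its brightest probe. At D1 its level ran from 11.02 to 11.83 in vehicle rats (median 11.38) and from 12.04 to 12.82 in DQ-12 rats (median 12.42). At D30 the ranges were 11.14 to 11.57 (median 11.34) and 11.63 to 12.32 (median 11.92), while at D180 they were 10.26 to 10.99 (median 10.52) and 11.46 to 12.47 (median 11.74). At each time every DQ-12 rat was above every vehicle rat. Cyp51 rose 2.07-fold at D1 (log2 1.05, SE 0.17, limma adjusted p = 2.89e-05), 1.52-fold at D30 (log2 0.60, adjusted p = 0.0319) and 2.41-fold at D180 (log2 1.27, adjusted p = 8.60e-07). The exact 2-sided permutation test gave p = 0.00216 at each time, the smallest that 6 against 6 arrays allow. A complete separation upwards was found for 5.23% of all genes at D1, 1.81% at D30 and 3.82% at D180. Within shared scan dates the difference was 1.05 at D1 (6 DQ-12 arrays, 1 vehicle), 0.59 and 0.69 at D30, and 1.17 and 0.85 at D180. The call at D30 was near its threshold and was lost when any of 7 of the 12 arrays was left out (vehicle replicates 1, 2, 3 and 6, DQ-12 replicates 1, 2 and 3), with a highest adjusted p of 0.0956. On the dimmer Cyp51 probe the groups overlapped at D30 (9.96 to 10.85 in vehicle rats, 10.32 to 10.80 in DQ-12 rats). They also overlapped at D180 (9.83 to 10.42 and 10.40 to 11.46).

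Fdps, the farnesyl diphosphate synthase, which makes the precursor of both sterols and protein prenyl groups, was separated at D1 and D180 but not at D30. Vehicle rats ran from 11.15 to 12.08 at D1 (median 11.73) and DQ-12 rats from 12.59 to 12.90 (median 12.68), the narrowest spread of any gene and group here (SD 0.11). At D30 the groups overlapped, at 10.85 to 11.84 (median 11.44) and 11.36 to 12.23 (median 11.66). At D180 vehicle rats ran from 11.21 to 11.69 (median 11.44) and DQ-12 rats from 11.93 to 12.92 (median 12.22). Fdps rose 2.02-fold at D1 (log2 1.01, SE 0.16, limma adjusted p = 3.12e-05) and 1.85-fold at D180 (log2 0.89, adjusted p = 0.000121), and its log2 fold change at D30 was 0.35 (adjusted p = 0.268). All 6 DQ-12 rats were above all vehicle rats at D1 and D180. The difference within the shared scan date at D1 was 0.91, and at D180 it was 0.84 on both shared dates. These values are from the brighter Fdps probe. On the dimmer probe the groups overlapped at D1 (9.28 to 9.60 in vehicle rats, 9.51 to 9.71 in DQ-12 rats). They also overlapped at D180 (9.16 to 9.51 and 9.37 to 9.85).

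Hmgcs1 makes HMG-CoA, an early intermediate of the mevalonate pathway. Its vehicle levels at D1 ran from 12.36 to 13.57 (median 12.59) and its DQ-12 levels from 13.14 to 13.94 (median 13.63). Only vehicle replicate 6, at 13.57, reached into the DQ-12 range. At D30 the ranges were 11.81 to 13.54 (median 12.63) and 12.74 to 13.60 (median 13.21), while at D180 the ranges were 11.88 to 13.26 (median 12.62) and 12.67 to 13.73 (median 13.28). Hmgcs1 rose 1.82-fold at D1 (log2 0.87, SE 0.25, limma adjusted p = 0.0145), while the log2 fold changes at D30 (0.52, adjusted p = 0.297) and D180 (0.59, adjusted p = 0.106) did not pass. Without vehicle replicate 3 at D180 the value there was 0.72 with an adjusted p of 0.0494. Within shared scan dates the difference was 1.20 at D1, 0.37 and 0.08 at D30, and 0.35 and 1.10 at D180.

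Idi1 interconverts the 5-carbon isoprenoid units that Fdps joins. At D1 it ran from 10.86 to 12.03 in vehicle rats (median 11.22) and from 11.64 to 12.49 in DQ-12 rats (median 12.42), and 5 of 6 DQ-12 rats were above all vehicle rats. At D30 the ranges were 10.93 to 12.13 (median 11.23) and 11.25 to 12.55 (median 12.003), while at D180 they were 10.16 to 11.66 (median 10.85) and 10.96 to 12.23 (median 11.82). DQ-12 replicate 6 at D180 lay within the vehicle range and the other 5 lay above it. Idi1 rose 1.93-fold at D1 (log2 0.95, SE 0.27, limma adjusted p = 0.0125) and 1.79-fold at D180 (log2 0.84, adjusted p = 0.0249), with 0.58 at D30 (adjusted p = 0.263). The D180 call was lost without vehicle replicate 2, vehicle replicate 6 or DQ-12 replicate 2, with a highest adjusted p of 0.0821. Within shared scan dates the difference was 1.30 at D1, 0.11 and 0.30 at D30, and 0.50 and 1.74 at D180.

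Sqle, the squalene epoxidase and first oxygen-requiring step of the pathway, passed at D180. There vehicle rats ran from 10.31 to 11.54 (median 10.62) and DQ-12 rats from 11.24 to 12.32 (median 11.68), with 4 of 6 DQ-12 rats above all vehicle rats. At D1 the ranges were 10.91 to 12.21 (median 11.42) and 11.47 to 12.22 (median 12.09), and at D30 they were 10.90 to 12.05 (median 11.17) and 11.73 to 12.29 (median 11.88). In both cases the medians differed but the highest vehicle rats reached the DQ-12 range. Sqle rose 1.90-fold at D180 (log2 0.93, SE 0.23, limma adjusted p = 0.00376). Its log2 fold change was 0.57 at D1 (adjusted p = 0.0908) and 0.55 at D30 (adjusted p = 0.210), and without vehicle replicate 6 at D1 the value was 0.72 with an adjusted p of 0.0291. Within shared scan dates the difference was 0.99 at D1, 0.67 and 0.33 at D30, and 0.53 and 1.42 at D180.

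Lss, the lanosterol synthase that closes the first sterol ring system, had the least secure calls. At D1 vehicle rats ran from 10.17 to 11.49 (median 10.95) and DQ-12 rats from 11.12 to 11.96 (median 11.59), with 3 of 6 DQ-12 rats above all vehicle rats. At D30 the ranges were 10.62 to 11.24 (median 10.86) and 10.63 to 11.33 (median 11.13), while at D180 they were 9.85 to 11.01 (median 10.68) and 10.12 to 11.93 (median 11.50). DQ-12 replicate 5 at D180, at 10.12, fell among the vehicle rats, and the other 5 were above them all. Lss passed at D1 (log2 0.66, SE 0.23, limma adjusted p = 0.0482) and at D180 (log2 0.75, adjusted p = 0.0211), and not at D30 (log2 0.16, adjusted p = 0.855). The only vehicle array scanned with the DQ-12 arrays at D1 had the highest vehicle level, and the difference within that date was 0.10. Leaving out any of 9 of the 12 arrays ended the D1 call (all except vehicle replicates 2 and 3 and DQ-12 replicate 2), with adjusted p up to 0.145. At D180 the call was lost without vehicle replicate 2, vehicle replicate 6, DQ-12 replicate 2 or DQ-12 replicate 4, with adjusted p up to 0.0778. The differences within shared dates at D180 were 0.94 and 0.27.

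**Figure D2:**
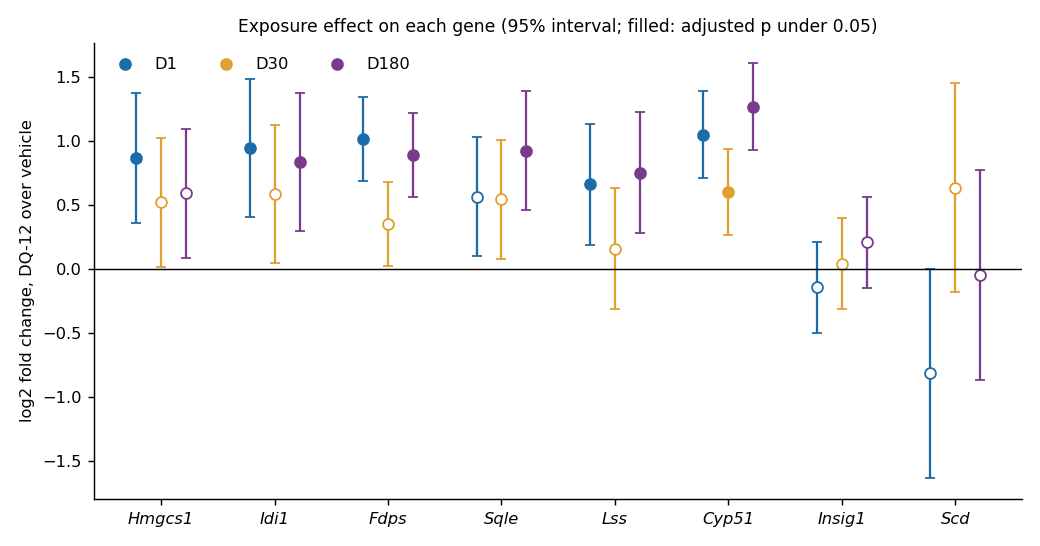
Log2 fold change of DQ-12 over vehicle (y axis) for each gene (x axis) at D1 (blue), D30 (yellow) and D180 (purple), with 95% intervals from limma; filled points have an adjusted p under 0.05. The 6 synthesis enzymes lie above 0 at all 3 times, Insig1 lies near 0, and Scd has the widest intervals.

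Insig1, which retains SCAP in the endoplasmic reticulum and is itself induced by SREBPs, was not called from the brighter of its 2 probes. That probe ran from 12.72 to 13.76 in vehicle rats at D1 (median 13.20) and from 12.30 to 13.44 in DQ-12 rats (median 13.28). The ranges were 12.89 to 13.61 (median 13.27) and 13.06 to 13.52 (median 13.32) at D30, and 12.78 to 13.39 (median 12.92) and 12.90 to 13.44 (median 13.27) at D180. The groups overlapped at each time, with log2 fold changes of -0.14 at D1 (95% interval -0.50 to 0.21), 0.04 at D30 (-0.31 to 0.40) and 0.21 at D180 (-0.15 to 0.56). The dimmer probe, designed on the same transcript, ran from 10.34 to 11.37 in vehicle rats at D1 (median 10.83) and from 11.28 to 11.82 in DQ-12 rats (median 11.66). Its log2 fold change at D1 was 0.76 with a limma adjusted p of 0.00212 over all 42200 probes, and it was 0.17 at D30 and 0.27 at D180, neither passing. The 2 probes correlated at r = 0.56 across the 36 arrays. The sign of Insig1 at D1 thus depended on the probe, and the mean of both probes was 0.31 (adjusted p = 0.234).

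**Figure D3:**
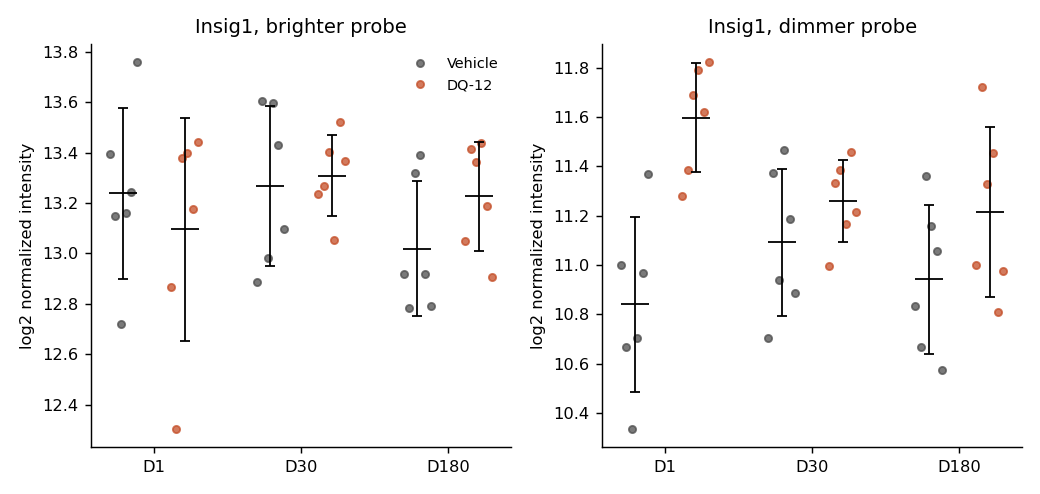
Log2 normalized intensity (y axis) of the brighter (left) and the dimmer (right) Insig1 probe in vehicle (dark gray) and DQ-12 (orange-red) rats by time point (x axis); points are rats and bars mean ± SD of 6. At D1 the dimmer probe lay between 11.28 and 11.82 after DQ-12 and between 10.34 and 11.37 in vehicle rats, so both probes' groups overlapped, the dimmer's through the highest vehicle rat.

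The other probes of the remaining genes mostly moved with the brighter ones. Counting Insig1, 3 of 7 such probes were called higher at D1 (6.48% of all probes were), 0 of 7 at D30 (1.87%) and 5 of 7 at D180 (6.48%), by limma over all probes kept. The second Cyp51 probe gave log2 fold changes of 0.77, 0.24 and 0.83 at D1, D30 and D180, and the second Idi1 probe 0.87, 0.07 and 0.96. The second Sqle probe gave 0.60, 0.34 and 1.16. The second Fdps probe gave 0.19, -0.12 and 0.28 and was not called. It is annotated to an Ensembl transcript rather than the RefSeq one. So is the brightest Lss probe, from which the Lss levels and calls came. Both further Lss probes, which are annotated to the same RefSeq transcript, gave 0.68 and 0.65 at D1 and 0.87 and 0.88 at D180. Neither was called at D1 (limma adjusted p = 0.0982 and 0.118 over all probes kept).

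Scd, the stearoyl-CoA desaturase that makes oleate and palmitoleate, had a negative log2 fold change at D1, unlike the sterol enzymes, without passing the test. At D30 its value, also not called, was the highest of the 8 genes. Scd was not tested against the enzymes. Vehicle rats at D1 ran from 11.78 to 14.16 (median 13.61), the widest spread of any gene and group here (SD 1.02), and DQ-12 rats from 11.40 to 13.20 (median 12.58). At D30 the ranges were 12.55 to 13.86 (median 13.04) and 12.67 to 14.47 (median 14.13), with 4 of 6 DQ-12 rats above all vehicle rats, and at D180 they were 12.84 to 14.62 (median 13.69) and 12.93 to 14.64 (median 13.66). The median was thus lower after DQ-12 at D1, higher at D30 and nearly equal at D180. The log2 fold changes were -0.82 (95% interval -1.64 to 0.0023, limma adjusted p = 0.174), 0.64 (-0.18 to 1.46, adjusted p = 0.486) and -0.05 (-0.87 to 0.77, adjusted p = 0.962). These intervals allow a change of more than 1 in log2 at D1 and at D30. Within shared scan dates the difference was -1.66 at D1, 1.35 and -0.02 at D30, and 0.14 and 0.58 at D180.

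The exposure effect was compared between time points by the interaction terms of the same limma model, over 3 pairs of times. None of the 8 genes passed for D30 against D1 (2.18% of all genes did), D180 against D30 (0.246%) or D180 against D1 (4.55%). At an unadjusted p under 0.05 were Fdps and Scd for D30 against D1 and Fdps and Cyp51 for D180 against D30. The share of all genes at that unadjusted level was not computed. The Fdps effect was 0.66 log2 units lower at D30 than at D1 (difference -0.66, SE 0.23, adjusted p = 0.124), with an adjusted p of 0.0469 without vehicle replicate 3 and 0.0481 without DQ-12 replicate 5 at D30. The Cyp51 effect was larger at D180 than at D30 by 0.67 (SE 0.23, adjusted p = 0.237). The Scd effect at D30 exceeded that at D1 by 1.45 (SE 0.57, adjusted p = 0.187). The smaller number of calls at D30 was therefore not matched by a difference between time points that passed the test.

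Within groups, after each group's mean was subtracted, most of the sterol genes varied together from rat to rat, and Scd did not vary with them. This is a description over 36 arrays that share the normalization. Over the 28 pairs, r of these residuals ran from -0.02 to 0.92 with a median of 0.43. The highest was between Hmgcs1 and Idi1 (0.92), and Sqle correlated at 0.85 with Hmgcs1, 0.84 with Idi1 and 0.80 with Insig1. Fdps correlated at 0.70 with Cyp51, 0.62 with Sqle, 0.48 with Insig1, 0.36 with Hmgcs1, 0.35 with Lss and 0.29 with Idi1. Cyp51 correlated as closely with Sqle (0.70) as with Fdps. Against the mean of the other 7 genes the residual r was 0.87 for Sqle, 0.78 for Hmgcs1, 0.75 for Idi1, 0.72 for Insig1 and Cyp51, 0.56 for Fdps, 0.50 for Lss and 0.07 for Scd.

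**Figure D4:**
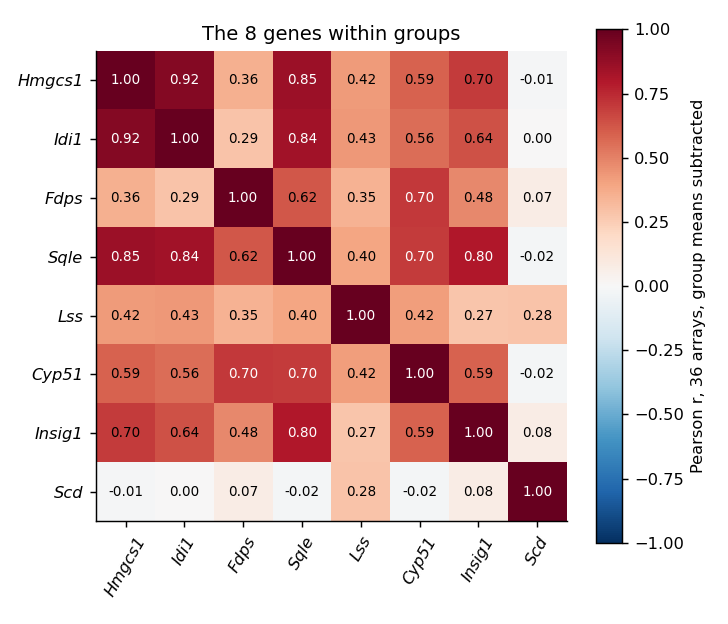
Pearson r between each pair of the 8 genes over 36 arrays after the group means were subtracted, as color and as number. The highest values are among the sterol genes, led by Hmgcs1 with Idi1 (0.92), and the Scd row lies between -0.02 and 0.28.

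Of the genes outside the set, the 10 most like the mean z-score of the 8 across the 36 arrays included Dhcr7 (r = 0.91), Mvd (0.89), Msmo1 (0.87), Sc5d (0.86), Me1 (0.84), Aacs (0.84), Tlcd1 (0.82), Dnajc22 (0.81) and Dbi (0.81). With group means subtracted they included Aacs (0.87), Msmo1 (0.85), Dhcr7 (0.85), Mvd (0.83), Sc5d (0.77), Uap1l1 (0.75), Acat2 (0.75) and Nsdhl (0.73). In the second list Msmo1, Dhcr7, Mvd, Sc5d and Nsdhl encode enzymes on the route from mevalonate to cholesterol.

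Across all arrays Scd ran with the few fatty acid and LXR genes chosen for this comparison, less distinctly so within groups. The other genes of those lists were not correlated with Scd. Across the 36 arrays the Scd level correlated at r = 0.70 with Acaca (acetyl-CoA carboxylase), 0.66 with Srebf1 (the SREBP-1 gene), 0.66 with Abca1 (the cholesterol exporter), 0.65 with Scd2 and 0.59 with Fasn (fatty acid synthase), and at 0.63, 0.50, 0.44, 0.64 and 0.49 after group means were subtracted. For the other 7 genes the r with Srebf1 ran from -0.35 (Lss) to 0.30 (Insig1), and within groups from -0.11 (Lss) to 0.40 (Insig1). Within groups Fdps correlated with Fasn as closely as Scd did (0.49 each), and with Scd2 the other 7 ran from 0.35 (Idi1) to 0.56 (Insig1).

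Other sterol synthesis enzymes that passed the test were higher after DQ-12, as were the called genes of the set. Of 16, 8 were called higher at D1 (7.58% of all genes were), 1 at D30 (2.74%) and 7 at D180 (7.82%), and none was called lower at any time, with median log2 fold changes of 0.58, 0.17 and 0.45. Mvd, the mevalonate diphosphate decarboxylase, passed at all 3 times (log2 1.02, 0.59 and 0.96; limma adjusted p = 8.19e-05, 0.0483 and 0.000111), but the D30 call was lost without any of 9 of the 12 arrays (all except vehicle replicates 4 and 5 and DQ-12 replicate 4), with adjusted p up to 0.125. Dhcr7, the last reductase of the pathway, rose by 1.02 at D1 (adjusted p = 0.000708) and 0.91 at D180 (adjusted p = 0.00168). Others that passed at D1 included Sc5d (0.95), Acat2 (0.91), Msmo1 (0.75), Pmvk (0.57) and Lbr (0.53). Those at D180 included Tm7sf2 (1.02), Sc5d (0.51) and Pmvk (0.39). The D180 call of Sc5d was lost without any of 8 of the 12 arrays (vehicle replicates 1, 2, 3 and 6, DQ-12 replicates 2 to 5; adjusted p up to 0.142), and that of Pmvk without any of 7 (vehicle replicates 2, 5 and 6, DQ-12 replicates 1 to 4; up to 0.112). Fdft1, the squalene synthase, had values of 0.07, -0.05 and 0.03 and was not called at any time. With either slide or scan date as a fixed block 0 of the 16 were called at D1, and with either as a random block 8 were. At D180 the 7 calls came to 3 with the time point fitted alone, 5 under a fixed scan date block, 0 under a fixed slide block, and 3 to 8 as each array was left out. The single D30 call was lost with slide, scan date or replicate as a block and with the time point fitted alone.

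Several genes of SREBP-1c and LXR action moved the other way at D1. Srebf1 was at least 11.36 in vehicle rats and from 10.17 to 11.15 in DQ-12 rats, so all 6 lay below every vehicle rat, as for 5.96% of all genes at D1 (log2 fold change -0.84, limma adjusted p = 0.000815). Scd2, a second desaturase, fell (-0.83, adjusted p = 0.00291), as did Mylip (-0.95, adjusted p = 0.000122), an LXR-induced ubiquitin ligase, and the sterol exporters Abca1 (-0.94, adjusted p = 7.09e-05) and Abcg1 (-0.65, adjusted p = 0.000328). Fasn was at -0.30 (adjusted p = 0.214) and Acaca at -0.11 (adjusted p = 0.592) at D1. Calls among the other fatty acid synthesis genes went both ways at D1. There 2 were called higher, Me1 (0.51, limma adjusted p = 0.00738) and Gpam, and 1 lower, Scd2. The Gpam value ran from 0.63 to 0.84 as each array was left out. Srebf2, which encodes SREBP-2, gave -0.01, 0.10 and -0.13 at the 3 times and was not called.

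The D1 values of the genes listed next differed from those at D30 by the interaction test. The D30 effect exceeded the D1 effect by 1.20 for Abca1 (limma adjusted p = 0.00234), 1.22 for Scd2 (0.0124), 1.05 for Mylip (0.0119), 1.00 for Srebf1 (0.0224), 0.94 for Fasn (0.0182) and 0.82 for Abcg1 (0.00830). None of the 8 genes of the set met that test, which 2.18% of all genes passed. At D30, Fasn (0.64, adjusted p = 0.0144) and Acaca (0.41, adjusted p = 0.0415) were called higher, and Fasn was higher again at D180 (0.67, adjusted p = 0.00253). The Acaca call was lost without any of 8 of the 12 arrays (replicates 1, 2, 5 and 6 of both groups), with adjusted p up to 0.141. With slide or scan date as a fixed block the differences between D30 and D1 kept their direction but none passed, for scan date with adjusted p from 0.0531 (Abca1) to 0.707 (Mylip). As a random block it ended the calls of Mylip (adjusted p = 0.106), Scd2 (0.107), Fasn (0.0934) and Srebf1 (0.0912), and that of Srebf1 was also lost with the mean of its probes (0.164).

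By list, 2 of 25 other fatty acid synthesis genes were called higher and 1 lower at D1, 2 and 0 at D30, and 4 and 2 at D180, with medians of 0.06, 0.11 and 0.17. Of all genes, 7.58% were called higher and 8.62% lower at D1, 2.74% and 1.24% at D30, and 7.82% and 9% at D180. With either fixed block none was called at D1 or D30, and at D30 none with that time point fitted alone. With scan date as a random block 1 was called at D1 and 1 at D30. The 6 calls at D180 came to 2 with the time point alone or with scan date as a fixed block, to 0 with slide as one, and to 4 to 9 as each array was left out. Of 22 genes of SREBP control and sterol regulation, 2 were called higher and 5 lower at D1 (the latter Srebf1, Mylip, Mbtps1, Npc1 and Erlin2), 1 and 0 at D30, and 2 and 1 at D180. The 7 calls at D1 came to 1 with slide or scan date as a fixed block, and to 4 with scan date as a random block or with probe means. The 3 at D180 came to 0 under a fixed slide block and to 1 under a fixed scan date block. Npc2, a carrier of cholesterol out of lysosomes, was higher at all 3 times (1.05, 0.68 and 1.05). Of 17 genes of the LXR list, 1 was called higher and 6 lower at D1, 2 and 0 at D30, and 5 and 2 at D180, with medians of -0.17, 0.18 and 0.15. The 6 lower at D1 were Abca1, Abcg1, Ppara (-0.76), Pparg (-0.54), Lpl (-0.51) and Cyp27a1 (-0.43). The 7 calls of this list at D1 came to 1 with scan date and 3 with slide as a fixed block, and to 4 with scan date as a random block. Soat1, which esterifies cholesterol for storage, was the gene called higher at D1 (0.63, adjusted p = 0.0160), and it was higher at D180 as well (1.12, adjusted p = 3.05e-05).

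**Figure D5:**
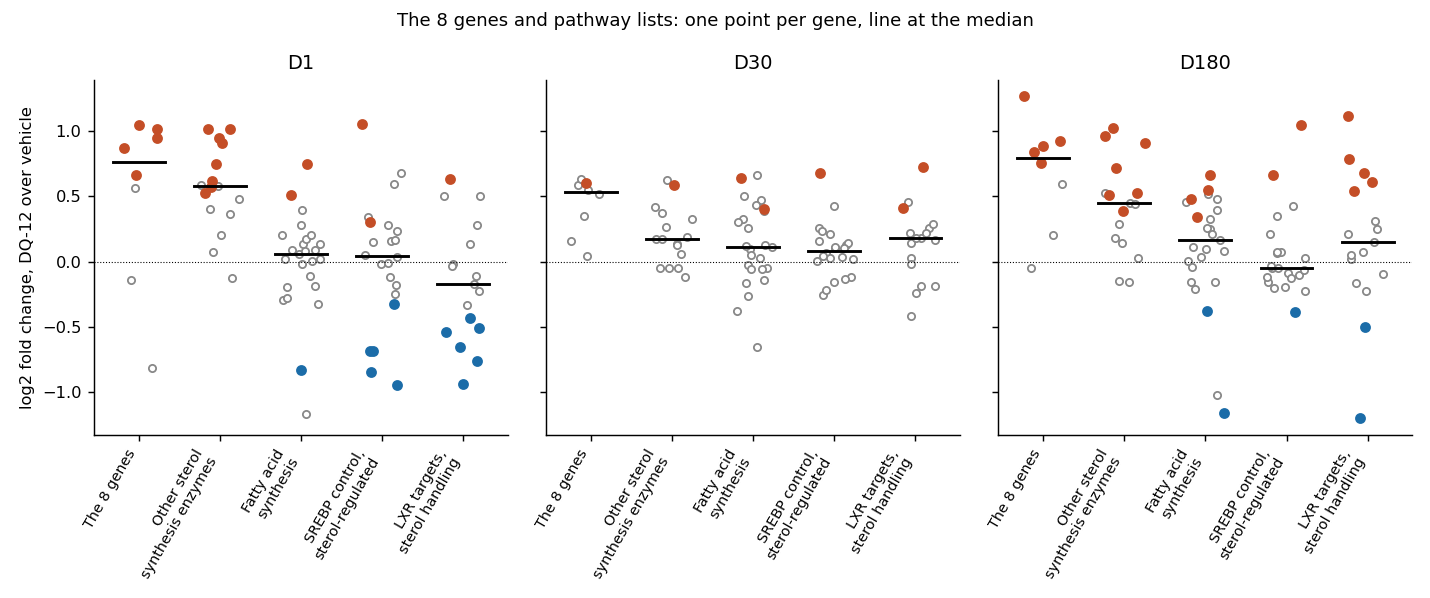
Log2 fold change of DQ-12 over vehicle (y axis) for each gene of 5 lists (x axis, the first being the 8 genes) at D1, D30 and D180. Orange-red points were called higher, blue points lower and open points not called, and lines mark the list medians. At D1 the sterol enzymes lie above 0 (median 0.58) while 6 of 17 LXR list genes were called lower.

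Some markers of cell types were called over the same comparisons. Of all genes, 7.58% were called higher and 8.62% lower at D1, 2.74% and 1.24% at D30, and 7.82% and 9% at D180. Of 10 macrophage markers, 5 were called higher at D1, 8 at D30 and 8 at D180, with none lower, and 8 of the 10 were well above background on all arrays. The log2 of their summed level ran from 15.21 to 15.76 in vehicle rats and 15.85 to 16.22 in DQ-12 rats at D1, from 14.94 to 15.43 and 16.19 to 16.67 at D30, and from 15.62 to 16.23 and 16.96 to 17.65 at D180. Of 10 alveolar type 2 markers, 2 were called higher and 1 lower at D1, 3 and 0 at D30, and 4 and 1 at D180. Their summed level ran from 19.58 to 19.74 in vehicle rats and 19.67 to 19.84 in DQ-12 rats at D1, from 19.65 to 19.78 and 19.87 to 19.94 at D30, and from 19.51 to 19.66 and 19.61 to 19.89 at D180. Alveolar type 1 markers were called lower in 3, 1 and 6 of 6 cases, and endothelial markers in 0, 0 and 5 of 5. Neutrophil markers were called higher in 1, 2 and 4 of 9 cases, with none lower. Of these 9, 6 were well above background on all arrays and 1 on none. Of the muscle markers 6 of 9 were so on all arrays, and of the adipocyte markers 2 of 8. Lymphocyte (7), fibroblast (6), airway (5), muscle (9) and adipocyte (8) markers had at most 1 call higher each at any time, and at most 3 lower (muscle at D180). Within groups, over 36 arrays, the mean of the type 2 markers correlated with Insig1 at r = 0.59, Cyp51 at 0.56, Fdps at 0.52, Sqle at 0.44, Lss at 0.43, Hmgcs1 at 0.32, Idi1 at 0.19 and Scd at -0.082. The mean of the macrophage markers correlated with Sqle at 0.28, Fdps at 0.26, Hmgcs1 at 0.25, Lss at 0.22, Idi1 at 0.20, Insig1 at 0.12, Cyp51 at 0.042 and Scd at -0.032. The part of these cell types in the changes of the 8 genes was not tested.

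Scan date was read from the array files and 5 dates held both groups of a time point. On the D1 date (6 DQ-12 arrays and 1 vehicle array) 7 of the 8 genes were higher after DQ-12, all except Scd, with differences of -1.66 to 1.30. At D30 all 8 were higher on the first shared date (4 vehicle arrays and 1 DQ-12 array) and 6 of 8 on the second (2 and 5). At D180 all 8 were higher on both dates (3 and 3 arrays, then 1 and 1). The 8 genes were read from the same few arrays and most varied together, so these counts are not separate results. The share of all genes higher on these dates was not computed. With scan date as a random block, limma called the same number at D180 (5), 4 at D1 and 1 at D30; with it as a fixed block, which rests on the single vehicle array at D1, the counts were 0, 0 and 5 at D1, D30 and D180. With slide as a random block the counts were 4, 1 and 5, and with slide as a fixed block, which at D1 and D180 rests on 1 slide each (1 vehicle with 4 DQ-12 arrays, and 1 with 1), they were 0 at all 3 times.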

How the data were processed

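Accessory lobe RNA of 36 rats was hybridized on Agilent 1-color (Cy3) arrays, 1 array per rat, and per the file headers the scans were read by the authors with Agilent Feature Extraction 12.0.1.1. The deposited array files hold background-subtracted processed intensity per spot. The deposited series table holds log2 values made by the authors. It matched the log2 processed intensity after 75th percentile scaling of the arrays and median centering of the probes, with r = 0.999973 and a median absolute difference of 0.001765 over 1641055 values, and its column medians ran from -0.1535 to 0.2284. The software behind it is not given in the sources used here.

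From the array files, control spots and outlier spots were left out, spots of a probe were averaged on the log2 scale, and probes were kept where 6 or more arrays exceeded the 95th percentile of negative control spots (42200 of 45598). These were quantile normalized. The brightest probe stood for a gene, giving 23940 genes, of which 206 had a missing value on some array (none of the 8 genes). Groups were compared with limma 3.58.1 (R 4.3.3) in 1 model of 6 group means with Benjamini-Hochberg adjustment over all genes. The p-values rest on the spread between arrays of different rats, which also holds any slide and scan date effects. The correlation of arrays within a block was 0.387 for slide and 0.251 for scan date. The study's methods name a batch correction without its variable, so slide and scan date were tried as blocks. Exact permutation tests were 2-sided, with a smallest p of 0.00216. The code was tested on simulated data. The number of arrays limits the precision.

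The 8 genes, the pathway lists and the marker lists were chosen with earlier results of these data known. All 8 genes were named. From the pathway lists, genes past the threshold (at most 8 per list and time) and the central genes Srebf1, Srebf2, Fdft1, Fasn, Acaca and Abca1 were named, as were the 10 genes most like the mean of the 8 by each measure. Some genes that this rule names are not reported here. Scd2, Abcg1, Mylip and Npc2 were also followed to other time points or tests. Promoter sequences were RefSeq's on GRCr8, matched by symbol. Alternatives were another scaling, background correction, filters, probe means, the deposited log2 values, single time points, blocks, and leaving out each array.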

Additional observations from a re-analysis of the deposited data

Results flagged for a closer look

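Of 48 groups of 6 arrays (8 genes in 6 groups), 3 held an array far from the others of its group by Dixon's test, which flags about 1 in 20 groups by chance. Hmgcs1 was 13.57 on the log2 scale in vehicle replicate 6 at D1, the highest of its group, with the nearest at 12.71. Sqle was 11.47 in DQ-12 replicate 2 at D1, the lowest of its group, with the nearest at 11.95. Sqle was 12.29 in DQ-12 replicate 3 at D30, the highest of its group, with the nearest at 11.93.

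The exposure effect differed between D30 and D1 in 6 genes of the pathway lists (16, 25, 22 and 17 genes) by limma's interaction test, and in none of the 8 genes. Of all genes, 2.18% differed. The D30 effect was higher by 1.20 for Abca1, 0.82 for Abcg1, 0.94 for Fasn, 1.05 for Mylip, 1.22 for Scd2 and 1.00 for Srebf1, on the log2 scale. Between D180 and D1, where 4.55% of all genes differed, Abca1, Abcg1, Fasn, Scd2 and Srebf1 passed as well, and Mylip did not. Apoe (0.94), Npc1 (1.11), Plin2 (0.72) and Lbr (-0.68) also passed there. The D180 effect was the higher in each except Lbr. Block values are given only for D30 against D1. At D1, 5 of the 6 vehicle arrays were scanned on other dates than the DQ-12 arrays, and the part of the scan date in these differences was not tested beyond the block values given above.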

How the results depend on the processing

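The 11 calls among the 8 genes (5 at D1, 1 at D30, 5 at D180) all held with normexp background correction and with a filter on probes well above background. Of the 11, 10 held with 75th percentile scaling, with the deposited log2 values, without a filter, with probe means, and with slide or scan date as a random block. The call lost was that of Cyp51 at D30 with probe means and that of Lss at D1 in the others. With each time point fitted alone 8 held, and the count at D180 was 3. With scan date as a fixed block 5 of the 11 held, with counts of 0 at D1 and 0 at D30. With slide as a fixed block 0 held, with counts of 0 at D1, 0 at D30 and 0 at D180. The count with a fold of at least 2 at D1 was 0 with probe means and with either fixed block, and at D180 it was 2 with probe means and 0 with slide as a fixed block. The fixed blocks rest on few arrays, and the cause of these losses was not tested.

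Some directions turned. With slide as a fixed block the log2 fold change was -0.22 for Hmgcs1, -0.16 for Sqle and -0.34 for Insig1 at D180, and -0.068 for Lss at D1, and the Cyp51 difference between D180 and D30 was -0.018. In the same setting it was -0.12 for Elovl1, -0.070 for Sc5d, -0.028 for Slc25a1 and -0.28 for Fdft1 at D180, 0.023 for Erlin2 at D1 and 0.012 for Fdft1 at D30. Insig1 at D1 was 0.31 with probe means, 0.21 when slide was a fixed block and 0.37 when scan date was, and 0.0043 and 0.019 with these as random blocks. Scd at D180 was 0.027 with 75th percentile scaling, 0.027 with the deposited values, 0.26 with slide as a fixed block, 0.25 with scan date as one, and 0.0068 with scan date as a random block. With scan date as a fixed block Fdft1 was -0.10 at D1 and -0.12 at D180. Srebf2 at D1 was 0.043 with 75th percentile scaling, 0.043 with the deposited values and 0.00060 with normexp.

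Leaving out each array in turn gave 4 to 5 calls at D1, 0 to 1 at D30 and 3 to 6 at D180. With a fold of at least 2 the counts were 0 to 4 at D1 and 1 to 2 at D180. Between D30 and D1, 0 to 1 of the 8 genes differed. At D180 the count of 3 came without vehicle replicate 2, vehicle replicate 6 or DQ-12 replicate 2. The log2 fold change then ran from -0.25 to 0.015 for Insig1 at D1, -0.035 to 0.11 for Insig1 at D30, -0.24 to 0.14 for Scd at D180, -0.19 to 0.14 for Fdft1 at D180, -0.13 to 0.013 for Fdft1 at D30 and -0.046 to 0.047 for Srebf2 at D1.

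The labels give a replicate number and no pairing, so same-numbered arrays were not paired in the main model. Their deviations correlated at -0.13 to 0.22, which cannot settle whether they shared any handling. With the replicate number as a block the counts were 4, 1 and 4 at D1, D30 and D180, with Lss lost at D1 (limma adjusted p = 0.117) and D180 (0.0722).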
